A study of Mus musculus with 4 samples.

Results

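Cyp26a1 and 8 other genes of vitamin A (retinoid) metabolism were followed across liver RNA-seq libraries of wild-type (WT) mice and of mice without SREBP1c (KO), a factor that insulin raises and that drives lipogenic genes in liver. The genes were the carriers Rbp4 and Ttr, the retinol dehydrogenases Rdh7, Rdh11 and Rdh16, the aldehyde dehydrogenases Aldh1a1 and Aldh1a7, the retinoic acid hydroxylase Cyp26a1 and the receptor Rarb, taken by symbol from a table of 23920 genes. They were chosen by function and because of the difference of Cyp26a1 between KO and WT libraries in these data, so every KO to WT comparison of the 9 genes is given as a description without a test. All mice were male C57BL/6 animals aged 12 weeks, refed for 12 h after a fast of 24 h, and each group had 2 libraries. The WT group carried the intact gene and the KO group the SREBP1c knockout, and the labels do not describe the knockout allele. The labels do not say that the libraries of a group came from separate animals, so any p-value reflects the spread of these libraries alone, which may be technical.

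The liver takes up dietary vitamin A, stores it as retinyl esters in stellate cells and exports retinol to the blood on RBP4, which travels bound to transthyretin (Ttr). Inside cells retinol and retinaldehyde are interconverted by dehydrogenases and reductases, and aldehyde dehydrogenases of the ALDH1A family oxidise retinaldehyde irreversibly to retinoic acid. Retinoic acid activates RAR receptors, which bind DNA as partners of RXR. CYP26A1 hydroxylates retinoic acid for removal, and its gene is itself switched on by retinoic acid, so its transcript is widely used as a readout of retinoic acid signalling.

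The promoters of 2 of the 9 genes held a DR5, a direct repeat of the half-site that retinoic acid receptors bind with 5 bases between the copies. The half-site was read as A or G, then G, then G or T, then TCA, and both strands were searched. RefSeq promoter windows (GRCm38.p6, the assembly of mm10, 250 bases before to 50 after a transcript start) were matched for 8 of the 9 genes, in 12 windows. A DR5 was found in 32 of all 32851 windows, or 0.0974%. The stretches around the repeats of Cyp26a1 and Rarb are shown because both genes are textbook retinoic acid targets and their values are set side by side below. They are written in the direction of the gene with the repeat in capitals. The Cyp26a1 stretch lies at chr19:37697756-37697807 on the plus strand, with the repeat on the opposite strand 32 to 16 bases before the transcript start of its window, 37697808, which lies inside the outer bounds of the gene given below. The Rarb stretch lies at chr14:16575493-16575549 on the minus strand, with the repeat 53 to 37 bases before an internal transcript start of the gene, 16575476, and the outer start of Rarb near 17082331 was not among the windows.
Cyp26a1: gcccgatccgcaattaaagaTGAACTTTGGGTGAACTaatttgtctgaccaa
Rarb: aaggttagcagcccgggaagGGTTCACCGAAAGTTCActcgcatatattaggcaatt

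A repeat with a gap of 2 bases (DR2) was in none of the 12 windows and in 0.268% of all windows. The sterol regulatory element that SREBP proteins bind, searched as TCACNCCAC on both strands, was also in none of the 12 and in 1.24% of all windows. These searches describe only the letters of the windows. The promoters of Aldh1a1 and Aldh1a7 are shown because these genes are neighbours and close copies. Aldh1a1 has 2 windows, and the one more like Aldh1a7 was taken, at the internal transcript start 20601968. Over the 60 bases before the starts (Aldh1a1 at chr19:20601908-20601967, plus strand, and Aldh1a7 at chr19:20727557-20727616, minus strand) 57 bases, or 95%, were identical, and the 3 that differ are in capitals. Before the outer start of Aldh1a1, 20492583, 14 of the 60 bases were identical to those of Aldh1a7.
Aldh1a1: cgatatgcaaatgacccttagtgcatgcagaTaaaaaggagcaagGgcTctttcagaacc
Aldh1a7: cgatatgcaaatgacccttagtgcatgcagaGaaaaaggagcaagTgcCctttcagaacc

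Expression was deposited as FPKM, fragments scaled to transcript length and to library size, with 1 row per RefSeq transcript, and rows were summed per gene. The steps between low FPKM values implied 22000000 to 24200000 fragments per library, an approximate figure. Of the 23920 genes 9820 had a mean of at least 1 FPKM and were tested, the 9 retinoid genes among them. Srebf1, the targeted gene, had 63.7 and 58.2 FPKM in the WT pair against 8.63 and 6.97 in the KO pair (log2 difference −2.82, limma adjusted p = 0.00172). A value of 0 was not read as absence, since Alb, among the most abundant liver transcripts, was listed at 0 in every library. The other 9 of 10 hepatocyte markers, Ttr among them, were measured, with Apoa1 between 7619 and 8880 FPKM. KO replicate 2 stood apart: the summed level of 16 acute phase genes was 26430 FPKM there against 10329 in KO replicate 1 and 11654 and 15157 in WT. Results are therefore given for each KO library by itself.

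Cyp26a1 (gene 13082, chromosome 19, 37697738 to 37701536) was high in 1 of the 4 libraries. Its level was 19.4 and 19.5 FPKM in WT, 96.1 FPKM in KO replicate 1 and 14.6 FPKM in KO replicate 2. The WT libraries were nearly identical, KO replicate 1 lay far above them and KO replicate 2 below them, so the groups overlapped. The mean was 19.5 ± 0.0614 FPKM for WT against 55.3 ± 57.6 FPKM for KO (SD, n = 2 each). KO replicate 1 had 4.93 times the WT mean and KO replicate 2 had 0.749 times the WT mean. The log2 difference of KO from WT, on the log2(FPKM + 1) scale used throughout, was 0.93 with both KO libraries, 2.25 without KO replicate 2 and −0.39 without KO replicate 1, so that its direction depended on 1 library. The table holds a single Cyp26a1 row, and no 50-base stretch of its transcript occurs in the transcript of another gene. The implied number of fragments was about 762 and 698 in WT, 3769 in KO replicate 1 and 521 in KO replicate 2.

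**Figure D1:**
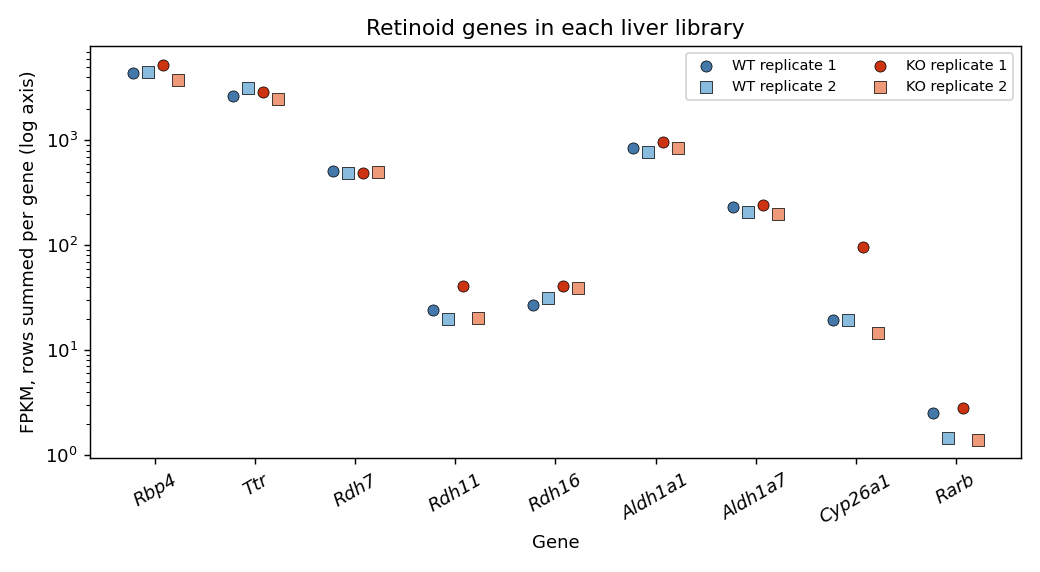
FPKM (log axis, rows summed per gene) of the 9 retinoid genes in each of the 4 libraries, with blue points for WT and red or orange points for KO. Cyp26a1 stands at 96.1 FPKM in KO replicate 1 and between 14.6 and 19.5 FPKM in the other libraries. The 4 values of Rdh7 lie close together.

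Set against all 9820 genes, the excess of Cyp26a1 in KO replicate 1 was among the largest. Its log2 difference of 2.25 from the WT mean ranked 6 among the positive differences of that library, and in KO replicate 2 its difference ranked 9350. Only 0.438% of the 9820 genes were at least 1 log2 unit above the WT mean in KO replicate 1 and 0.305% at least 1 unit below it. Of the 9 retinoid genes 1, Cyp26a1, was past that step upward and none downward. The corresponding shares in KO replicate 2 were 0.692% upward and 0.662% downward, with none of the 9 genes past either. The gap between the 2 KO libraries, 2.64 on the log2 scale for Cyp26a1, ranked 23 among all genes. The gap between its WT libraries ranked 9536, among the smallest. Since Cyp26a1 was chosen for this shift, these ranks describe it and test nothing.

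**Figure D2:**
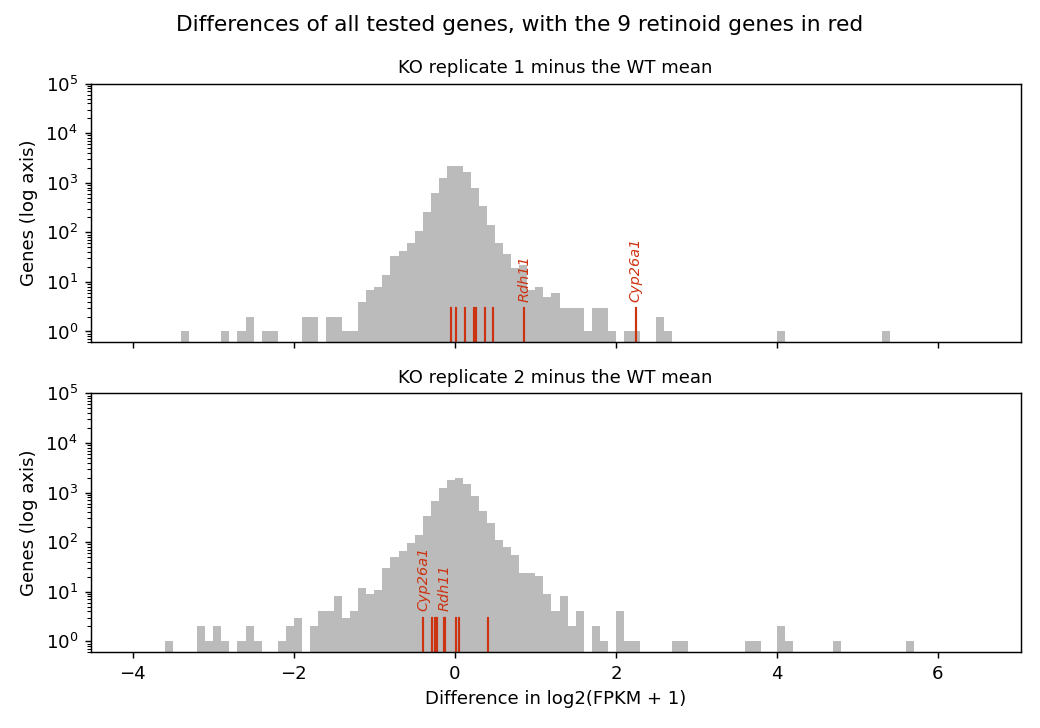
Histograms of the difference from the WT mean in log2(FPKM + 1) for the 9820 tested genes (grey, count on a log axis), for KO replicate 1 above and KO replicate 2 below, with red lines for the 9 retinoid genes. Cyp26a1 lies at 2.25 in KO replicate 1, in the sparse right tail, and at −0.39 in KO replicate 2, inside the bulk.

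The other members differed less, and the group values overlapped for 7 of the other 8. Both KO libraries lay above both WT libraries for 1 of the 9 genes, Rdh16, and below them for none, while over all tested genes the shares were 22.4% and 16.4%. The median log2 difference over the 9 genes was 0.26 for KO replicate 1 and −0.14 for KO replicate 2, against 0.01 and 0.02 over all tested genes.

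The plasma carriers were the most abundant members. Rbp4 (gene 19662, chromosome 19, 38116620 to 38125321), the retinol carrier secreted by hepatocytes, had 4438 and 4489 FPKM in WT, 5273 in KO replicate 1 and 3767 in KO replicate 2. The KO libraries fell on either side of WT, at 1.18 and 0.844 times its mean, and the log2 difference with both was −0.00. Of its 2 rows, NM_011255 made up 98.6% to 99.1% of the sum in each library. The minor row, NM_001159487, had 40.7 and 52.0 FPKM in the WT pair against 62.2 and 52.0 in the KO pair, so the main row led in all libraries. Rbp4 lies 415084 bases beyond Cyp26a1 on the same chromosome and did not share its pattern in size. Ttr (gene 22139), which carries thyroid hormone as well as the RBP4 complex, had 2670 and 3159 FPKM in WT, 2927 in KO replicate 1 and 2488 in KO replicate 2. KO replicate 1 lay between the WT libraries and KO replicate 2 below both (log2 difference −0.11). By mean FPKM, Rbp4 ranked 16 and Ttr 27 among all tested genes.

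Of the 3 retinol dehydrogenases, Rdh16 was above WT in both KO libraries, Rdh11 in KO replicate 1 only, and Rdh7 in neither. Rdh7 (gene 54150, chromosome 10, 127884027 to 127889247), a microsomal enzyme that oxidises retinol and also hydroxysteroids, had 514 and 486 FPKM in WT, 484 in KO replicate 1 and 505 in KO replicate 2. All 4 values lay within a narrow band, with group means of 500.0 ± 19.5 and 495 ± 14.4 FPKM (SD, n = 2 each). Rdh16 (gene 19683, chromosome 10, 127801090 to 127815846), a related enzyme of the same cluster 68181 bases away, had 26.7 and 31.3 FPKM in the WT pair against 40.5 and 38.9 in the KO pair. Both KO libraries were above both WT libraries, at 1.40 and 1.34 times the WT mean (log2 difference 0.44, and 0.33 to 0.55 with any 1 library left out). Rdh7 shares 13.2% of its 50-base stretches with other genes of the cluster (Rdh18-ps, Rdh1 and Rdh16f1) and Rdh16 shares 15.1% (with Rdh9, Rdh16f1 and Rdh19), so that the division of fragments among these copies is uncertain.

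Rdh11 (gene 17252, chromosome 12, 79174233 to 79191855) is a reductase of retinaldehyde and other short-chain aldehydes, and its transcript is known as one that SREBP proteins regulate in mouse liver. It had 24.2 and 20.03 FPKM in WT, 40.9 in KO replicate 1 and 20.1 in KO replicate 2. As for Cyp26a1, KO replicate 1 was the high library, at 1.85 times the WT mean, while KO replicate 2 lay between the WT values. The log2 difference was 0.37 with both KO libraries, 0.86 without KO replicate 2 and −0.12 without KO replicate 1. In KO replicate 1 its excess ranked 58 among all tested genes, under the step of 1 log2 unit.

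For both aldehyde dehydrogenases the WT and KO values overlapped. Aldh1a1 (gene 11668, chromosome 19, 20492583 to 20643463), the abundant retinaldehyde dehydrogenase of hepatocytes, had 843 and 781 FPKM in WT, 974 in KO replicate 1 and 838 in KO replicate 2 (log2 difference 0.15). KO replicate 1 was the highest library, and KO replicate 2 fell between the WT libraries. Aldh1a7 (gene 26358, chromosome 19, 20692953 to 20727556), its neighbour 49490 bases away and known mainly for acting on other aldehydes, had 234 and 207 FPKM in WT, 240.0 in KO replicate 1 and 200.4 in KO replicate 2. The KO libraries bracketed the WT libraries, and the log2 difference was −0.01. Of the 50-base stretches of the Aldh1a1 transcript 7.53% occur in Aldh1a7 as well, so a small part of their fragments could have been assigned to either. Aldh1a1 kept a higher level per length than Aldh1a7 in every library.

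Rarb (gene 218772, chromosome 14, 16430839 to 17082331), the retinoic acid receptor that retinoic acid itself induces, was the least abundant member. It had 2.51 and 1.45 FPKM in WT, 2.81 in KO replicate 1 and 1.40 in KO replicate 2. The groups overlapped and the gap between the WT libraries, 0.52 on the log2 scale, was wider than that between the groups (log2 difference 0.05, −0.29 when KO replicate 1 was omitted, 0.38 when KO replicate 2 was). Its 4 rows divided the sum unevenly. NM_011243 held 70.0% to 87.6% of it, and NM_001289760 was at 7.7e-05 FPKM in WT replicate 1 and listed at 0 in the other libraries. The leading row rested on about 156 and 66 implied fragments in the WT pair against 154 and 74 in the KO pair, so its values are less precise than those of the other members. Cyp26a1 and Rarb both carry the DR5 printed above. In KO replicate 1 they had 4.93 and 1.42 times their WT means. The leading row of Rarb was not highest there, with 2.17 FPKM against 2.20 in WT replicate 1.

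In order of mean level per length the members stood as Rbp4, Ttr, Aldh1a1, Rdh7, Aldh1a7, Cyp26a1, Rdh16, Rdh11 and Rarb. Rbp4 was above Ttr in every library, and Aldh1a1, Rdh7 and Aldh1a7 kept their order in all 4. The place of Cyp26a1 came from KO replicate 1: in the other libraries its 14.6 to 19.5 FPKM were below Rdh16 and Rdh11. Rdh16 and Rdh11 were at nearly the same FPKM in KO replicate 1 (40.5 and 40.9), so their order did not hold in every library.

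A wider list of 68 retinoid genes outside the 9 members describes the pathway around them. It was written by role from general knowledge, with earlier results of these data known. All 68 were found in the table, and 46 reached a mean of 1 FPKM. None of the 46 passed limma's threshold (Benjamini-Hochberg adjusted p under 0.05) in either direction. Only 0.0713% of all tested genes did, so that count says little about these genes. In the same limma fit 6 of the 46 had an unadjusted p under 0.05, as did 7.75% of all tested genes. Both KO libraries were above both WT libraries for 12 of the 46 and below for 6, where the shares over all genes were 22.4% and 16.4%. The median log2 difference of the list was 0.00, against 0.02 over all tested genes. With KO replicate 1 left out 3 of the 46 passed (Cd36 and Hsd17b6 higher, Dhrs9 lower in KO), where 3.12% of all genes did. With KO replicate 2 left out 1 passed (Aox3, lower in KO), where 1.19% of all genes did.

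The largest positive differences in the list belonged to Cd36, Hsd17b6 and Cyp26b1. Cd36, a transporter of fatty acids that also takes part in carotenoid uptake, had 8.82 and 9.85 FPKM in the WT pair against 13.1 and 23.0 in the KO pair (log2 difference 0.83, limma adjusted p = 0.514). Hsd17b6, a hydroxysteroid dehydrogenase that also oxidises retinol, had 29.96 and 38.6 FPKM in the WT pair against 50.04 and 68.7 in the KO pair (0.77, adjusted p = 0.406). For both, KO replicate 2 was the highest library, unlike Cyp26a1. Cyp26b1, the second retinoic acid hydroxylase, had 4.402 and 4.18 FPKM in the WT pair against 7.02 and 5.74 in the KO pair (0.47, adjusted p = 0.436). Its KO libraries were both above WT, with KO replicate 1 the higher, at a level well below that of Cyp26a1. Cyp26c1, the remaining hydroxylase, stayed under 1 FPKM in every library.

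On the negative side stood Aox3, Bco1 and Dhrs9. Aox3, an aldehyde oxidase of mouse liver, had 155 and 162 FPKM in the WT pair against 98.7 and 134 in the KO pair (log2 difference −0.46, adjusted p = 0.595). Bco1, which cleaves β-carotene to retinaldehyde and is listed as Bcmo1 in the table, had 4.65 and 3.84 FPKM in the WT pair against 2.70 and 3.29 in the KO pair (−0.39, adjusted p = 0.571). Dhrs9, a retinol dehydrogenase, had 2.86 and 2.55 FPKM in the WT pair against 2.48 and 1.30 in the KO pair (−0.39, adjusted p = 0.701). The KO libraries of all 3 were below both WT libraries, against 16.4% of all tested genes. This follows in part from choosing the largest negative differences.

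**Figure D3:**
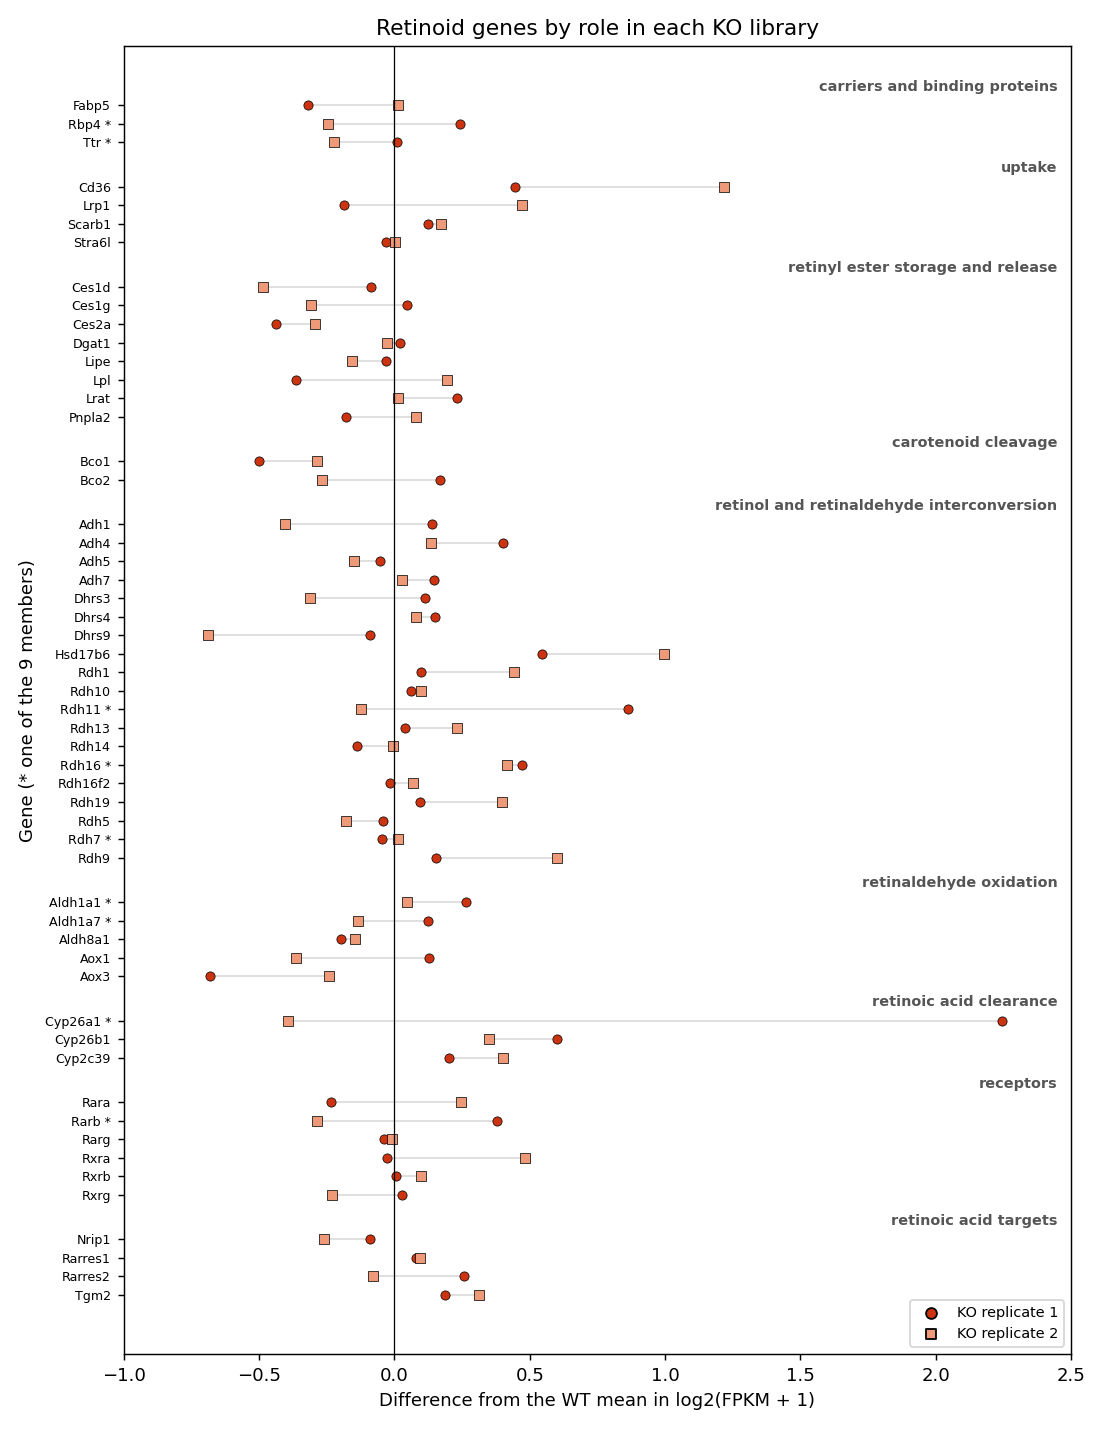
Difference from the WT mean in log2(FPKM + 1) of each KO library (circles, KO replicate 1; squares, KO replicate 2) for the 9 members (asterisks) and other tested retinoid genes, grouped by role. The span of Cyp26a1, from −0.39 to 2.25, is the widest of those drawn, and the members of most roles lie on both sides of 0.

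By role, the list was mixed. Over all 9820 tested genes 5361 had a positive and 4459 a negative difference, however small. Of the 16 tested genes of retinol and retinaldehyde interconversion, 10 had a positive and 6 a negative difference (median 0.08). Adh1, the class I alcohol dehydrogenase, was the most abundant with 2472 and 2403 FPKM in the WT pair against 2682 and 1842 in the KO pair, followed by Adh5 with a mean of 266 FPKM. Of 8 genes of retinyl ester storage and release 1 was positive and 7 negative (median −0.09). Both KO libraries were below both WT libraries for 1 of the 8, Ces2a, against 16.4% of all tested genes. Ces1d, a carboxylesterase that can hydrolyse retinyl esters, had 271 and 226 FPKM in the WT pair against 233 and 176 in the KO pair, and Ces2a, a related esterase, had 96.8 and 105 in the WT pair against 74.1 and 81.9 in the KO pair (log2 difference −0.37, adjusted p = 0.540). Lrat, which makes retinyl esters in stellate cells, had 2.80 and 3.18 FPKM in the WT pair against 3.68 and 3.03 in the KO pair.

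Of 4 tested uptake genes 2, Cd36 and Scarb1, were above WT in both KO libraries, against 22.4% of all tested genes. Stra6l, the RBP4 receptor of liver, had 59.6 and 57.8 FPKM in the WT pair against 57.5 and 58.8 in the KO pair, and the classical receptor Stra6 was listed at 0 in all 4 libraries. Scarb1, which takes up carotenoids with lipoproteins, had a mean of 77.2 FPKM and a log2 difference of 0.15. Fabp5, a fatty acid binding protein that also binds retinoic acid, differed by −0.15. Both carotenoid oxygenases had negative differences, as did 4459 of all 9820 tested genes, with Bco2 at −0.05. In retinaldehyde oxidation, Aldh8a1 had 134 and 153 FPKM in the WT pair against 125 and 130 in the KO pair. Among the receptors Rxra, the main RXR of liver, had 57.0 and 65.7 FPKM in WT, 59.99 in KO replicate 1 and 86.0 in the other KO library, and Rxrb differed by 0.05. The groups overlapped for all 5 tested receptors outside the members, as they did for 6019 of all 9820 tested genes, so that count says little about the receptors. Cyp2c39, a P450 also known to hydroxylate retinoic acid, had a log2 difference of 0.30.

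Known retinoic acid targets, of which Cyp26a1 is the best studied in liver, are given next. Of 16 such genes outside the members, some of which also stand under other roles, 9 were tested. Both KO libraries were above both WT libraries for 4 of the 9 and below for none, where the shares over all genes were 22.4% and 16.4%. None of the 9 was 1 log2 unit or more above the WT mean in KO replicate 1, as only 0.438% of all genes were, so that count says little about these genes. Their median difference was 0.18 for KO replicate 1 and 0.02 for KO replicate 2, against 0.01 and 0.02 over all tested genes. Dhrs3, a retinaldehyde reductase induced by retinoic acid, had 119 and 125 FPKM in WT, 132 in KO replicate 1 and 97.9 in KO replicate 2. It was highest for KO replicate 1 and lowest for KO replicate 2, the same order as Cyp26a1 but within a far smaller range. Rarres2, which encodes chemerin, had 526 and 574 FPKM in the WT pair against 657 and 519 in the KO pair, again with the extremes in the KO libraries. The 4 targets above WT in both KO libraries could not have this order, since it puts KO replicate 2 lowest. Lrat, Rarg and Nrip1, tested targets whose groups also overlapped, did not have it. The share of this order over all genes was not determined. Tgm2, a transglutaminase, had 64.4 and 54.7 FPKM in the WT pair against 67.7 and 73.9 in the KO pair. Stra8, Hoxb1 and Cdx1 were listed at 0 throughout.

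Genes whose promoter window holds a DR5 were looked at as a further description, after the values of the members had been seen. There were 31 such genes, 11 of them in the table and 3 tested: Cyp26a1, Rarb and Blvrb, which encodes a biliverdin reductase. Blvrb had 166 and 170 FPKM in WT, 249 in KO replicate 1 and 192 in KO replicate 2. By gene sum KO replicate 1 was the highest library for all 3, at differences of 2.25 (Cyp26a1), 0.38 (Rarb) and 0.57 (Blvrb) from the WT mean. KO replicate 2 was the lowest by gene sum for Cyp26a1 and Rarb only. For Rarb neither place held in its leading row, NM_011243. That row had 2.20 and 1.02 FPKM in the WT pair against 2.17 and 1.14 in the KO pair. Cyp26a1 was chosen for its shift and Rarb is also a member, so only Blvrb was new here. The share of all tested genes with KO replicate 1 highest was not determined, so these values test nothing about the DR5.

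The 5 genes with the pattern most like that of Cyp26a1 were found by the root mean square distance of log2(FPKM + 1), centred on each gene's mean, over the 4 libraries, among 9409 genes. They were Amd1 (distance 0.18), Serpina4-ps1 (0.33), Apoa4 (0.41), Socs2 (0.42) and Slc25a30 (0.43). All had their highest value in KO replicate 1, which follows from choosing them by likeness to Cyp26a1. Amd1 and Socs2 reached the filter of a mean of 1 FPKM only through KO replicate 1, so their place here also follows from that library. In KO replicate 1 Amd1 had 305 times its WT mean, against 4.93 times for Cyp26a1. The likeness of Amd1 thus holds on the log2(FPKM + 1) scale and not in fold. Apoa4, an apolipoprotein of triglyceride-rich lipoproteins, had 1488 and 1701 FPKM in WT, 3812 in KO replicate 1 and 896 in KO replicate 2. Serpina4-ps1, a serpin pseudogene transcript, had 18.1 and 14.5 FPKM in WT, 57.8 in KO replicate 1 and 6.96 in KO replicate 2. Socs2, a growth hormone induced inhibitor of cytokine signalling, had 0.734 and 0.379 FPKM in WT, 3.33 in KO replicate 1 and 0.507 in KO replicate 2. Slc25a30, a mitochondrial carrier, had 5.12 and 4.43 FPKM in WT, 13.6 in KO replicate 1 and 4.005 in KO replicate 2. Amd1, which encodes an enzyme of polyamine synthesis, had 0.0154 and 0.0168 FPKM in WT, 4.92 in KO replicate 1 and 0.0169 in KO replicate 2. A near-identical copy of Amd1 exists in the mouse genome, so the assignment of its fragments is uncertain.

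**Figure D4:**
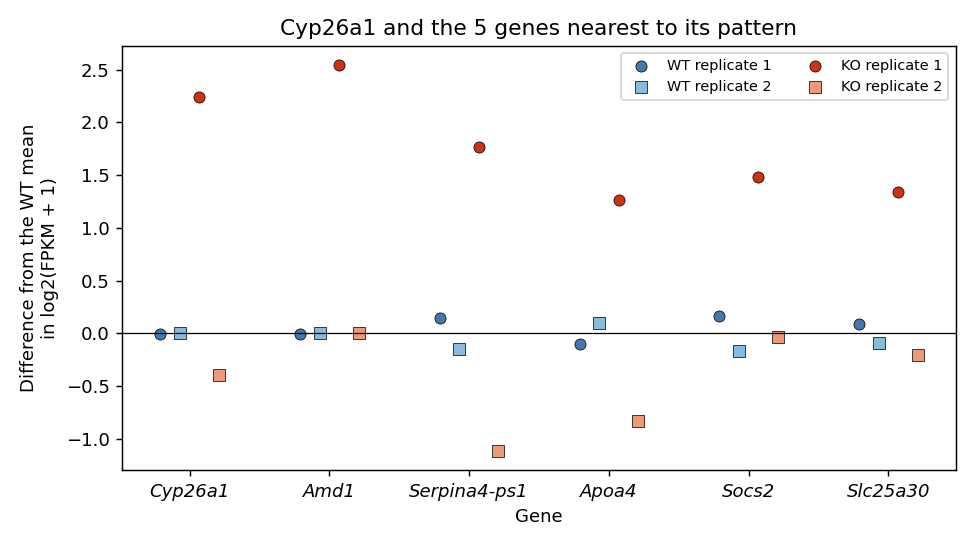
Difference from the WT mean in log2(FPKM + 1) in each library for Cyp26a1 and the 5 genes nearest to its pattern. KO replicate 1 is the highest library for all 6, from 1.26 for Apoa4 to 2.54 for Amd1, which follows from how they were chosen. KO replicate 2 lies below WT by 0.39 for Cyp26a1 and by 1.11 for Serpina4-ps1.

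Markers of other liver cells were set beside these values, because stellate cells hold most liver retinoid and bulk RNA cannot tell a change in cell number from a change in RNA per cell. Summed, 12 stellate cell markers reached 55.1 and 60.6 FPKM in WT, 60.9 in KO replicate 1 and 61.9 in KO replicate 2. Dcn supplied most of that, with 36.6 and 41.8 FPKM in WT, 39.6 in KO replicate 1 and 40.4 in KO replicate 2. None of the markers was at 0. Of the 10 tested 5 were above WT in both KO libraries, against 22.4% of all tested genes. Kupffer cell markers (7 genes) summed to 86.5 and 69.2 in WT, 65.2 in KO replicate 1 and 117 in KO replicate 2. Endothelial markers (7 genes) summed to 54.8 and 57.2 in WT, 60.04 and 72.5 in KO, most of it Clec4g. Cholangiocyte markers (6 genes) summed to 25.4 and 23.5 in WT, 50.3 in KO replicate 1 and 41.7 in the other KO library, and Spp1, which supplied most of that sum, had 45.5 FPKM in KO replicate 1. Among 7 adipocyte and pancreas markers Cpa1, Prss1 and Ctrb1 were listed at 0 in every library, and the sum was 16.7 and 13.9 in WT, 25.4 in KO replicate 1 and 15.03 in KO replicate 2, nearly all of it Cela1. In the library with the highest Cyp26a1 the cholangiocyte sum and Cela1 were thus also at their highest, and their part in the result was not tested.

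Liver zonation and the nutritional state were described in the same way. Of 12 pericentral genes, the sum was 3072 and 3557 FPKM in WT, 3814 in KO replicate 1 and 3642 in KO replicate 2. Most of it was Cyp2e1. In both KO libraries 3 of the 12 were above WT and 3 below, against 22.4% and 16.4% of all tested genes. Their median difference from the WT mean was 0.04 for KO replicate 1 and −0.11 for KO replicate 2. Of 14 periportal genes, the sum was 4067 and 4463 in WT, 3152 in KO replicate 1 and 4254 in the other KO library. Pck1 alone had 994 FPKM in KO replicate 2, against 170 and 300 in WT and 229 in KO replicate 1. Of the 14, 9 were below WT in both KO libraries, against 16.4% of all tested genes. Their median difference from the WT mean was −0.34 for KO replicate 1 and −0.29 for KO replicate 2. Over 9 tested genes of the fasting response the median difference from the WT mean was 0.02 for KO replicate 1 and 0.69 for KO replicate 2. For the 16 acute phase genes it was −0.40 for KO replicate 1 and 1.23 for KO replicate 2. Of these genes 5 were above WT in both KO libraries and 0 below, against 22.4% and 16.4% of all tested genes. KO replicate 2 had the highest acute phase sum and the lowest Cyp26a1, Rbp4 and Ttr. KO replicate 1 had the lowest acute phase sum and the highest Cyp26a1 and Rbp4. Whether the acute phase or periportal levels had a part in the retinoid values was not tested.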

How the data were processed

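Liver RNA was sequenced in 2 WT and 2 KO libraries, with groups and replicate numbers taken from the sample titles. The authors deposited 1 table of FPKM per RefSeq transcript, per the file headers. Bowtie, TopHat and mm10 are named in the submitters' processing notes, while their versions, the FPKM program, the annotation and strand use are not given there. The 33170 rows were summed per gene number to 23920 genes. Differences were tested with limma 3.58.1 (R 4.3.3, intensity trend) on log2(FPKM + 1) over 9820 genes (mean FPKM 1 or more), calling a Benjamini-Hochberg adjusted p under 0.05, after a run on simulated data with known changes. This scale understates changes of low genes. Depth was estimated from the steps of low values, of which 70.1% to 72.4% lay within 0.1 of a whole fragment, so no count test was run. With 2 libraries against 2, an exact permutation test could not reach the threshold and none was used. Promoters and coordinates come from RefSeq GRCm38.p6, and transcripts for the 50-base comparison from GENCODE M21. The members and lists were chosen with earlier results of these data known. Named were Srebf1, the members, the largest differences and the most abundant genes of each role in the wider list, and the 5 nearest patterns, except 1 gene of the wider list that is counted but not reported here. The alternatives left out each library, added a replicate block, dropped the trend, kept the row of highest mean per gene, scaled by quantiles or the upper quartile, or changed the pseudocount (0.1, 0.5) or the filter (none, 5 FPKM). Figures were drawn with matplotlib 3.10.9 in python 3.11.15, and tables joined with pandas 2.3.3 (numpy 2.4.6).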

Additional observations from a re-analysis of the deposited data

How the results depend on the processing

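The log2 difference of Cyp26a1 was 0.93 and lay between 0.88 and 0.94 with other pseudocounts, scalings or rows. With 1 library omitted it ranged from −0.39 (no KO replicate 1) to 2.25 (no KO replicate 2). Rdh11, at 0.37, likewise ranged from −0.12 to 0.86. By construction each of these values then rests on the remaining KO library. The 7 genes called over the whole table became 11 with a pseudocount of 0.1, 3 with a minimum of 5 FPKM, 4 with the row of highest mean per gene, 0 without a filter on low values and 19 with the replicate number as a block, and the cause was not tested. With 1 library left out the count ranged from 1 to 306, where the lone sample of a group was assumed to vary like the other group. Of the 46 tested retinoid genes outside the members 0 were called, also with the replicate block and every other alternative except the omission of a KO library (range 0 to 3 with 1 library left out). Same-numbered libraries share only a number: the correlation of their deviations across genes was 0.167, and with 2 pairs it does not show pairing. Depth limits Rarb most.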
